A study of Sus scrofa with 6 samples.

Results

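Circular RNAs (circRNAs) are closed loops made when a splice donor joins an acceptor that lies upstream of it, and the reads that cross this back-splice junction identify them. They lack free ends and a poly(A) tail, which protects them from exonucleases, and they are known to be plentiful in brain, where many come from genes of neurons and synapses. Most are built from exons of protein-coding genes, so that a host gene can give both a linear messenger RNA and 1 or more circles.

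The 200 circRNAs described here had the highest mean level over 6 pig brain libraries, of 11375 circRNAs in the deposited table. The level is TPM, the back-splice reads divided by the length of the circRNA and by a factor for each library. The members were chosen by this mean alone. Of the libraries, 3 were from wild boar and 3 from Rongchang pig, a domestic breed of China; all the animals were females aged 2 years, and the labels give no treatment. The wild boar libraries were new and labelled as brain, the domestic pig libraries were re-analysed from an earlier deposit and labelled as cerebrum, whereas prefrontal cortex stands in the title of the series. Breed, source project and labelled tissue therefore cannot be told apart. Beyond the sample numbers, nothing in the labels states how many animals gave each library, so p-values measure the spread between these samples.

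Recovered back-splice reads ranged from 33644 to 59343 in the wild boar libraries and from 48822 to 73089 in the domestic pig libraries. Brain cell markers were present in all 6, with 5 neuronal genes summing to 627 to 1949 TPM and 2 matched oligodendrocyte genes to 1485 to 3125 TPM, while 3 cerebellar genes summed to 4.18 TPM or less. The striatal genes DRD1, DRD2 and PPP1R1B summed to 6.66 to 12.2 TPM in 5 libraries and to 52.3 TPM in domestic pig 3. Of genes of other organs, ALB had 70.7 TPM in wild boar 3 and 2.48 to 15.2 TPM in the others. CKM had 6.33 TPM in wild boar 2 and 0.401 TPM or less in the others. The 4 cerebral cortex genes summed to 18.0 to 33.9 TPM in wild boar and 27.4 to 46.1 TPM in domestic pig. Of these only NEUROD6 separated the breeds (4.28 to 8.22 against 12.6 to 18.3 TPM). The 3 red blood cell genes (HBB, ALAS2 and AHSP, all matched) summed to 521 to 758 TPM in wild boar and to 123 to 311 TPM in domestic pig. The 3 microglial genes summed to 12.5 to 21.9 TPM in wild boar and 22.7 to 31.2 TPM in domestic pig, where P2RY12 (5.11 to 7.34 against 13.5 to 16.03 TPM) but not CSF1R or CX3CR1 separated the breeds. The 3 astrocyte genes summed to 330 to 480 TPM and 424 to 691 TPM, and of these only AQP4 separated the breeds, with 58.4 to 110.6 against 127.9 to 220.2 TPM. The part of these markers in the breed results was not tested.

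The mean TPM of the 200 ran from 1.64 to 26.8, and their reads over the 6 libraries from 40 to 3414, with a median of 304, against a median of 11 reads over all circRNAs. The cut fell in a dense part of the ranking. The last circRNA inside it came from ARID1B, a subunit of the BAF chromatin remodeller, at 1.6353 TPM (ssc_circ_684, chr1:10070672-10175846). The first outside it came from CBX1, a heterochromatin protein, at 1.6349 TPM (ssc_circ_4554, chr12:24327241-24328063). The circRNAs of PLCB1, ERO1B, SPPL3 and SPAG9, ranked 196 to 199, lay between 1.65 and 1.647 TPM. Those of VPS50, FAM208A, APP and DDHD1, ranked 202 to 205, lay between 1.633 and 1.617 TPM. Because TPM divides by length, the ranking favours short circles: 142 of the 200 were also among the 200 with the highest share of back-splice reads.

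The 12 most abundant circles came from 12 genes. Whether the breeds overlapped depended for many of them on the scale: values are given first as deposited, and then after median-ratio rescaling, which sets the typical circRNA equal across libraries. The first came from TLK1, a kinase that acts on histone chaperones, on the minus strand at chr15:77234646-77283482 (ssc_circ_5038). It had 24.1, 24.4 and 27.1 TPM in wild boar 1 to 3 and 27.9, 24.6 and 32.9 TPM in domestic pig 1 to 3. It was built from 267 nt of a span of 48837 nt and held 81.9% of the back-splice reads of the 12 circRNAs of its host. The ranges of the breeds overlapped on deposited TPM. After rescaling every wild boar library lay above every domestic pig library, as for 6.21% of all circRNAs tested (the background).

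The circle of RIMS1, the active zone scaffold that prepares synaptic vesicles for release, was the most read of the whole table, with 3414 reads (ssc_circ_891, chr1:52146557-52179177). Its level was 23.3, 18.5 and 26.7 TPM in wild boar and 27.0, 21.9 and 34.3 TPM in domestic pig. The breeds overlapped as deposited, and after rescaling every wild boar library was higher, as for TLK1 (background 6.21%). A longer RIMS1 circle with the same downstream end ranked 94th (ssc_circ_888, chr1:52130362-52179177). It had 2.02, 2.45 and 2.76 TPM in wild boar and 3.24, 2.85 and 3.30 TPM in domestic pig.

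PHF21A encodes a reader of unmethylated histone H3 in the LSD1 corepressor complex. Its circle (ssc_circ_2363, chr2:16373975-16389509) stood at 19.1, 14.8 and 15.0 TPM in wild boar and 25.4, 26.6 and 25.9 TPM in domestic pig. Every domestic pig library lay above every wild boar library as deposited (background 18.2%), and the breeds overlapped after rescaling. RERE, an atrophin family corepressor, gave the circle with the most uneven level of the 12 (ssc_circ_175, chr6:69106984-69124265). It had 7.75, 31.6 and 9.61 TPM in wild boar and 7.99, 12.02 and 17.6 TPM in domestic pig. Wild boar 2 stood above all other libraries.

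CCDC149, a gene for a coiled-coil protein, gave a further circle of the 12 (ssc_circ_6678, chr8:18861488-18879156), with 5.80, 8.04 and 6.52 TPM in wild boar and 13.7, 13.9 and 13.9 TPM in domestic pig. The circle of ME1, the cytosolic malic enzyme that makes NADPH, varied little (ssc_circ_1010, chr1:82875117-82891579), with 8.80, 10.7 and 7.85 TPM against 9.47, 9.39 and 10.7 TPM. That of SLC25A3, the mitochondrial phosphate carrier, had a span of only 834 nt (ssc_circ_9232, chr5:85285642-85286475), with 5.26, 6.13 and 3.27 TPM against 19.9, 12.4 and 7.64 TPM. On deposited TPM CCDC149 and SLC25A3 were lower in wild boar without overlap (background 18.2%), and ME1 overlapped. After rescaling CCDC149 and SLC25A3 overlapped, and ME1 was higher in every wild boar library (background 6.21%).

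CFDP1, a chromatin protein named for its part in craniofacial development, gave a circle of 6.75, 5.05 and 2.92 TPM in wild boar and 8.37, 7.60 and 15.9 TPM in domestic pig (ssc_circ_19, chr6:12234387-12252148). KCNN2 encodes the small-conductance calcium-activated potassium channel SK2. Its circle equalled its genomic span of 419 nt and was the only circRNA of its host (ssc_circ_2717, chr2:118773810-118774228). It had 4.87, 4.67 and 6.92 TPM in wild boar and 7.17, 9.39 and 12.8 TPM in domestic pig. Both were lower in every wild boar library than in any domestic pig library as deposited, where 18.2% of all circRNAs tested were, and both overlapped after rescaling, where 8.37% were lower without overlap. The circles of BMPR2, RASA2 and NOL4, which complete the 12, are given with the breed comparison.

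**Figure D1:**
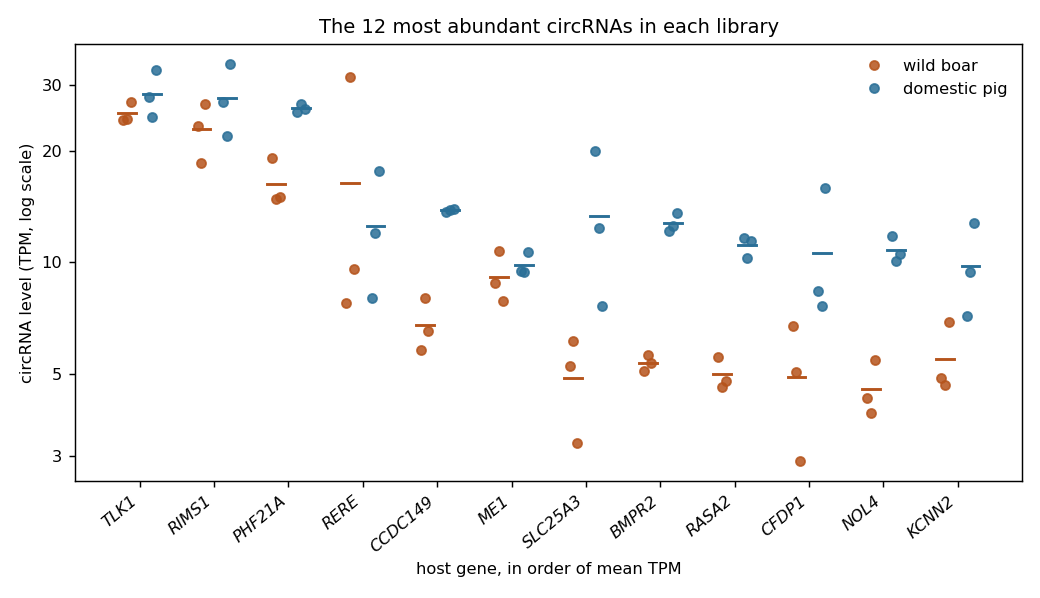
Level of the 12 most abundant circRNAs in each library (TPM, log scale), by host gene in order of mean TPM. Points are single libraries and bars the means of 3. On this deposited scale TLK1 and RIMS1 overlap between breeds, RERE is spread by wild boar 2 at 31.6 TPM, and the domestic pig points of CCDC149 lie between 13.7 and 13.9 TPM.

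Positions placed 197 of the 200 circles in 176 host genes of the Sscrofa11.1 RefSeq annotation, and 3 lay in no annotated gene (ssc_circ_7230, ssc_circ_2632 and ssc_circ_4867). One circle had several candidate hosts, and 5 had a host with only a LOC identifier. Of the hosts, 159 gave 1 of the 200 circles, 14 gave 2, ATRNL1 and PICALM gave 3 each and MLIP gave 4. The deposited table covers chromosomes 1 to 18. Chromosome 1 held 34 of the 200, 17% against 13.2% of all circRNAs, and chromosome 16 held 2, 1% against 2.32%. The minus strand held 93 of them.

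Genomic spans, between the outer splice ends, ran from 268 nt in BRINP1 to 153094 nt in NPAS3, a neuronal transcription factor. The median span was 10496 nt, against 14150 nt over all circRNAs. Spans under 1 kb were found in 19 of the 200, 9.50% against 4.91% of all, and spans over 50 kb in 12, 6% against 12.7% of all. Among the 200 circRNAs next in mean TPM, short and long spans each made up 8%. The next longest spans belonged to MED13L (141781 nt), a subunit of the Mediator kinase module, DENND1A (137686 nt) and ARID1B (105175 nt). Between these ends lay 76 circles of 1 to 10 kb and 93 of 10 to 50 kb.

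The length of a circle, the part of its span that the scaling counted, had a median of 359 nt against 539 nt over all circRNAs, and ran from 60 to 1437 nt. Length enters the rule that chose the circles, so this difference is a description. The 200 circles with the highest share of reads had a median length of 491.5 nt. For 7 of the 200 the length equalled the span, so that no intron was left out. Besides KCNN2 these came from TMEM132D, ROBO2, SMAD5, BRINP1, LRP6 and SV2B.

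At least 1 splice end was shared with another circRNA by 167 of the 200, 83.5% against 69.5% of all circRNAs. Both ends were shared by 71, 35.5% against 23.4%. For 171 the circle was the most read one of its host, 85.5% against 31.3% of all circRNAs. The median circle took 63.1% of its host's back-splice reads, against 15.8% over all. Abundance as the criterion favours both. Among the 200 circRNAs next in mean TPM these values were 72% and 59.6%, and 77% shared at least 1 end. Only 11 were the sole circRNA of their host, 5.5% against 12.4% of all. The 17 genes with more than 1 circle among the 200 gave 26 pairs of circles, of which 10 shared the end of higher coordinate, 6 shared that of lower coordinate, 5 overlapped with both ends apart and 5 did not overlap.

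MLIP, which encodes a protein that binds lamin A/C, gave 4 overlapping circles on the minus strand of chromosome 7, which together held 85.7% of the reads of its 10 circRNAs. The first (ssc_circ_1974, chr7:26620967-26645027) had 9.43, 4.44 and 6.13 TPM in wild boar and 3.45, 6.08 and 1.83 TPM in domestic pig. The circle that shares its lower coordinate but runs further (ssc_circ_1976, chr7:26620967-26664601) had 2.71, 2.30 and 2.24 TPM against 4.999, 3.03 and 2.87 TPM. The higher coordinate of that one was shared by 2 shorter circles. One of them (ssc_circ_1980, chr7:26644983-26664601) had 1.97, 2.14 and 2.82 TPM against 4.35, 3.15 and 4.59 TPM, and the other (ssc_circ_1978) is given below. On deposited TPM the circle that stops at 26645027 thus had the higher mean in wild boar, with overlapping libraries, and the 3 circles that reach 26664601 were lower in every wild boar library (background 18.2%). After rescaling the first was higher in every wild boar library (background 6.21%), ssc_circ_1978 alone of the 3 stayed lower without overlap (background 8.37%), and the other 2 overlapped.

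ATRNL1, the attractin-like membrane protein, had 37 circRNAs, of which 3 were among the 200 and held 49.98% of their reads. Means in wild boar and domestic pig were 3.90 ± 0.62 and 6.35 ± 0.65 TPM for ssc_circ_5834 (chr14:125707566-125716203; SD, n = 3 each). For ssc_circ_5836, which shares its upstream end, they were 2.10 ± 0.54 and 2.88 ± 2.04 TPM, where domestic pig 3 at 5.23 TPM stood apart from the other 2 at 1.68 and 1.71 TPM. The third, ssc_circ_5806 (chr14:125438861-125478881), had 1.79 ± 0.80 and 1.64 ± 0.24 TPM. PICALM, a clathrin assembly protein of endocytosis, gave 3 circles on chromosome 9 that all reach 19913189. Their means in wild boar and domestic pig, in order of rank, were 2.89 ± 0.82 and 5.91 ± 0.29 TPM (ssc_circ_7804), 1.498 ± 0.49 and 3.17 ± 0.05 TPM (ssc_circ_7802) and 1.28 ± 0.28 and 2.07 ± 0.62 TPM (ssc_circ_7805). As deposited, all 3 PICALM circles were lower in every wild boar library than in any domestic pig library (background 18.2%), and after rescaling only ssc_circ_7804 was (background 8.37%).

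The 200 circles, 1.76% of the circRNAs in the table, held 28.9% ± 0.14 of the circRNA TPM of the wild boar libraries and 29.0% ± 1.01 of that of the domestic pig libraries (mean ± SD of 3 libraries; p = 1 in an exact permutation test). Of back-splice reads they held 24.2% ± 0.35 and 23.6% ± 1.04 (exact two-sided permutation test, p = 0.4, or 0.667 when adjusted by Benjamini-Hochberg over the 5 tests of this kind). In single libraries the read share ran from 22.6% (95% Wilson interval 22.3 to 22.9%, domestic pig 3) to 24.6% (24.3 to 24.99%, wild boar 2). These intervals cover counting error only. The share differed between breeds by less than the spread between libraries. The smallest p that 3 against 3 libraries allow is 0.1.

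The summed TPM of the 200, in contrast, had a mean of 593 ± 21.8 over the wild boar libraries and of 883 ± 48.4 over the domestic pig libraries (SD of 3). Every domestic pig library lay above every wild boar library, from 574 to 617 TPM against 852 to 938 TPM (exact permutation p = 0.1, adjusted 0.5). The sum over all circRNAs moved in the same way, with 1994 to 2121 TPM per wild boar library and 2880 to 3367 TPM per domestic pig library. Abundance was not concentrated in a few circles. The first held 1.08% of the circRNA TPM on average, the first 12 held 6.16%, the first 50 held 14.5%, the first 100 held 20.9%, and it took 1000 to reach 55.7%.

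**Figure D2:**
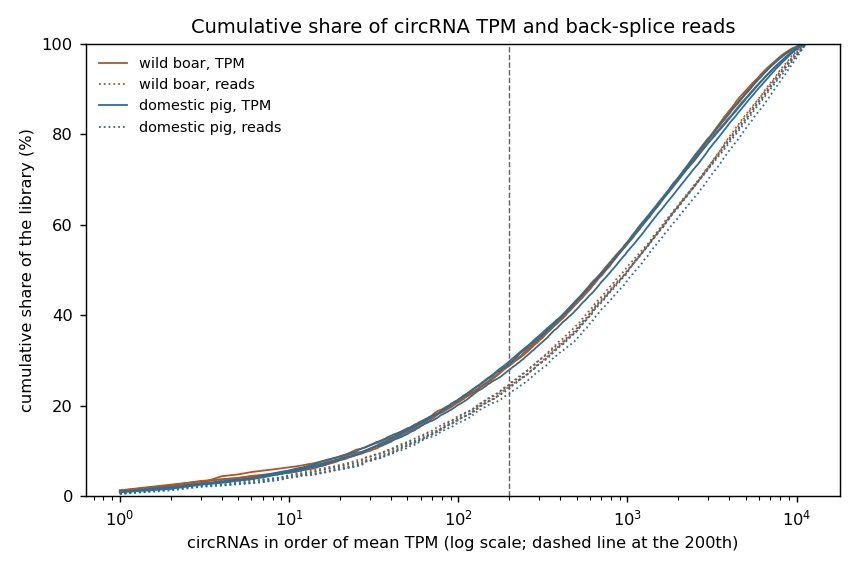
Cumulative share of each library's circRNA TPM (solid) and back-splice reads (dotted) in percent, over circRNAs in order of mean TPM (log scale), with 1 line per library. The lines of both breeds lie close together, and at the dashed line at the 200th circRNA they average 29.0% of TPM and 23.9% of reads.

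All 200 circles were above 0 in all 6 libraries, as were all of the 200 next in mean TPM and 35.0% of all circRNAs. Of the 200, 96 ranked among the first 200 of every single library. Of the 50 highest circles 49 were among those 96, and of the 50 lowest none was, which the order by the mean of these same libraries favours. Taking the 200 highest circRNAs from the wild boar libraries alone and from the domestic pig libraries alone gave 151 in common, 75.5% of each list. The number of the 200 among the first 200 of a library averaged 156 ± 7.23 for wild boar and 165 ± 5.69 for domestic pig (SD of 3 libraries; p = 0.3 in an exact permutation test, adjusted 0.667). The median of the worst rank over the 6 libraries was 213. It was highest for the circle of the zinc finger gene ZC3H6, ranked 149th on the mean and 1186th in its worst library.

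Within a breed, the log2 level of a circle on deposited TPM had an SD of 0.36 at the median, against 0.22 from counting error alone. After rescaling, the within-breed SD was more than 2 times the counting SD for 53 of the 200, and below it for 30. The steadiest on deposited TPM came from PLCB1, a phospholipase C downstream of G proteins (ssc_circ_5967, chr17:17591384-17596265). It had 1.38, 1.41 and 1.49 TPM in wild boar and 1.89, 1.88 and 1.84 TPM in domestic pig. Next was the circle of EMC2, of the membrane protein insertion complex of the endoplasmic reticulum (ssc_circ_8395), with 1.85, 1.96 and 1.89 TPM against 1.86, 1.97 and 1.75 TPM. The circles of BMPR2 and PAN3 followed. These 4 spreads lay below their counting error on deposited TPM. After rescaling those of BMPR2 and PAN3 lay just above it (0.141 against 0.139 and 0.185 against 0.178), and other circles were steadier than PLCB1 (0.143), TLK1 among them (0.101).

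The widest spread was that of TBC1D22A, a protein with a Rab GTPase-activating domain (ssc_circ_8877, chr5:2675422-2692132). It had 1.38, 5.17 and 5.07 TPM in wild boar and 0.884, 2.26 and 5.15 TPM in domestic pig. RERE came next, by its wild boar 2 value. The circle of STXBP3, a Munc18 protein of vesicle fusion (ssc_circ_8769, chr4:111245266-111251135), had 3.30, 1.96 and 4.77 TPM against 5.23, 5.03 and 1.47 TPM. That of HOMER1, a scaffold of the postsynaptic density (ssc_circ_2568, chr2:88184110-88206327), had 1.86, 2.25 and 1.58 TPM against 2.19, 1.55 and 6.78 TPM. In each of these 4 the libraries of 1 breed differed among themselves by more than the breed means did, and for HOMER1 domestic pig 3 alone was high, the library with the higher striatal sum. The part of that marker difference in the HOMER1 value was not tested.

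**Figure D3:**
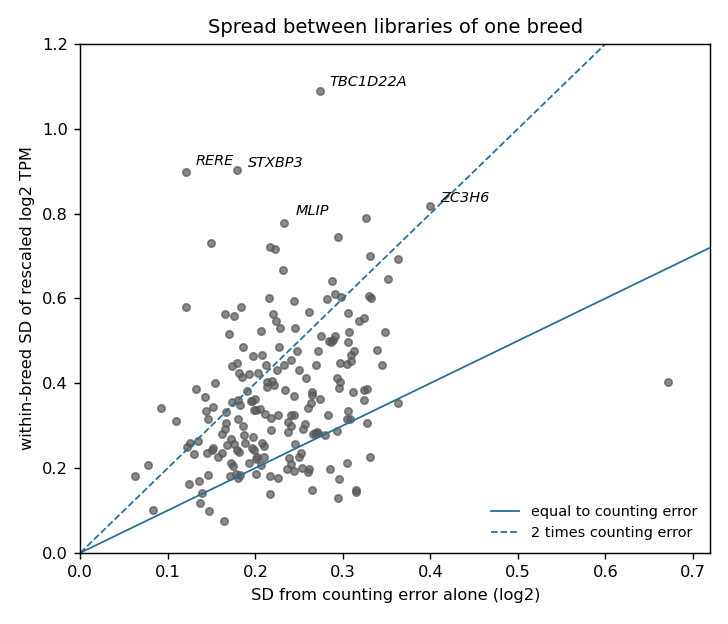
Within-breed SD of the log2 level of each of the 200 circRNAs after median-ratio rescaling (vertical axis) against the SD that counting error alone would give (horizontal axis); each point is 1 circRNA. The solid line marks equality and the dashed line 2 times the counting SD. TBC1D22A, RERE and STXBP3 lie far above both.

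The central comparison of the study, wild boar against domestic pig, was made with limma over 9709 circRNAs on log2(TPM + 0.045), a scale that understates changes of low values. On deposited TPM 8 of the 200 circles fell in wild boar and none rose at an adjusted p under 0.05 (background 0.134% of all tested called lower and 0% higher). In bulk tissue, fewer cells of a type and less RNA per cell cannot be told apart. Every one of the 8 had an adjusted p of 0.0475, close to the threshold. For each the libraries of the breeds did not overlap, as deposited (background 18.2%) or after rescaling (background 8.37%). The calls were made on these same values, so the separation is no separate support. The 8 came from 7 hosts.

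BMPR2, the type II receptor for bone morphogenetic proteins, gave the most abundant of the 8 (ssc_circ_5148, chr15:106074746-106076503). It had 5.09, 5.64 and 5.35 TPM in wild boar and 12.1, 12.5 and 13.6 TPM in domestic pig, a log2 fold change of -1.24 ± 0.21 (SE). Its values within each breed were among the closest of the 200. MEF2C is a transcription factor of neuronal and muscle differentiation. Its circle (ssc_circ_2625, chr2:96152766-96165180) had 1.67, 2.10 and 2.04 TPM against 5.46, 5.75 and 5.28 TPM, a log2 fold change of -1.49 ± 0.26.

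RASA2, which switches off Ras by promoting its GTP hydrolysis, gave 2 circles that share their upstream end. The longer (ssc_circ_3911, chr13:82256891-82285635) had 5.56, 4.62 and 4.801 TPM in wild boar and 11.6, 10.3 and 11.4 TPM in domestic pig, a log2 fold change of -1.15 ± 0.22. The shorter (ssc_circ_3910, chr13:82256891-82274534) had 2.90, 3.45 and 2.89 TPM against 8.62, 8.12 and 7.59 TPM, a log2 fold change of -1.39 ± 0.24. Both were lower in all 3 wild boar libraries.

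NOL4 encodes nucleolar protein 4. Its circle (ssc_circ_434, chr6:117942103-117948715) had 4.31, 3.92 and 5.45 TPM against 11.8, 10.1 and 10.5 TPM, a log2 fold change of -1.25 ± 0.23. DENND1B, an exchange factor for the endosomal GTPase RAB35, gave 1 circle that passed (ssc_circ_3284, chr10:20438111-20481282), with 2.42, 3.74 and 3.48 TPM against 6.95, 8.11 and 10.2 TPM, a log2 fold change of -1.38 ± 0.26. A staggered DENND1B circle among the 200 (ssc_circ_3289) did not pass, with means of 1.52 ± 0.29 and 2.70 ± 0.40 TPM (SD, n = 3 each).

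The largest change of the 8 was that of PLA2R1, the receptor for secreted phospholipase A2 (ssc_circ_4949, chr15:66918248-66936983), with 1.601, 1.18 and 1.49 TPM against 3.34, 4.73 and 6.68 TPM, a log2 fold change of -1.71 ± 0.31. The eighth was the MLIP circle ssc_circ_1978 (chr7:26633929-26664601), with 1.00, 1.46 and 1.49 TPM against 4.12, 3.99 and 3.79 TPM, a log2 fold change of -1.58 ± 0.29. The MLIP circle ssc_circ_1974 had a value of opposite sign, 0.90 ± 0.37 (adjusted p = 0.267, not passing), and the difference between both was not tested.

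Most of the 200 had a value below 0 on this scale. Their median log2 fold change was -0.66, against -0.45 over all circRNAs tested, and 172 were below 0 and 28 above. This gap depended on the pseudocount: the medians were -0.68 and -0.69 at 0.01, and -0.54 and -0.10 at 0.5. The groups did not overlap for 103 lower circles (background 18.2%) and for 4 higher ones (background 2.46%). At an unadjusted p under 0.05, 105 were lower (background 12.8%) and 4 higher (background 1.67%).

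These calls depended on the scale between libraries. Median-ratio rescaling moved the median of all circRNAs tested to -0.10 and that of the 200 to -0.08. None of the 200 then passed (background 0.0206% in either direction), with 94 above 0 and 106 below. At an unadjusted p under 0.05, 24 were higher (background 3.96%) and 22 lower (background 5.12%). The groups did not overlap for 31 lower circles (background 8.37%) and 24 higher ones (background 6.21%). After rescaling the 8 circles had log2 fold changes between -0.55 (RASA2, ssc_circ_3911) and -1.12 (PLA2R1), with adjusted p from limma between 0.293 and 0.449. Simulated data held no shift of the whole table between breeds. In them limma recovered 0% of the circles given a log2 change of 1, on deposited or rescaled TPM. Not passing is therefore no evidence of equal levels. With only circRNAs above 0 in all 6 libraries tested on deposited TPM, 50 of the 200 passed. Of these 49 were lower (background 3.65%) and 1 higher (9 of all 3976). The 8 calls also fell to 0 without wild boar 2 or wild boar 3, where 2 and 1 of all tested passed. They fell to 1 without wild boar 1 or domestic pig 1, where 6 and 3 of all tested passed.

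**Figure D4:**
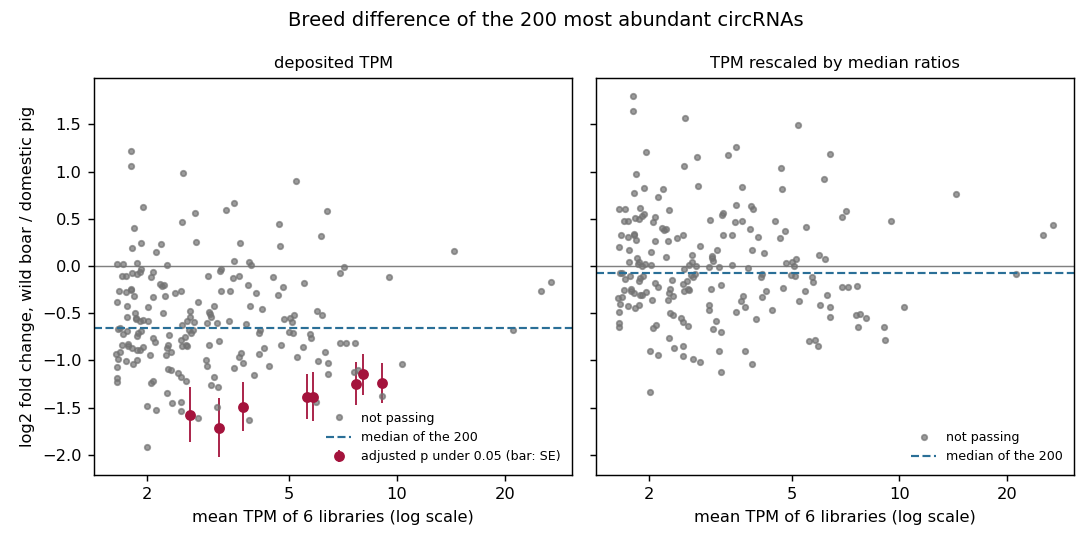
Log2 fold change of each of the 200 circRNAs, wild boar against domestic pig, against mean TPM (log scale), on deposited TPM (left) and after median-ratio rescaling (right). Red points with SE bars are the 8 circRNAs at an adjusted p under 0.05, all on the left and all lower; the dashed line is the median of the 200, at -0.66 and -0.08.

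Toward higher levels in wild boar, none of the 200 circles passed on deposited or rescaled TPM, and 4 are named here after their values were seen. Of the 9709 circRNAs tested, 0 passed as higher on deposited TPM and 1 after rescaling. On deposited TPM the largest value belonged to the uncharacterised locus LOC106506781 (ssc_circ_6475, chr18:17889683-17947161). It had 1.98, 2.13 and 3.56 TPM in wild boar and 1.07, 0.799 and 1.30 TPM in domestic pig, a log2 fold change of 1.22 ± 0.34 (adjusted p = 0.138; 1.80 ± 0.32 and 0.0708 after rescaling). It was the 1 higher circle of the 50 that passed when only circRNAs above 0 in all 6 libraries were tested (limma adjusted p = 0.0429). Of all 3976 circRNAs tested there, 9 passed as higher. SV2B, a glycoprotein of synaptic vesicles, gave a circle of 1 block (ssc_circ_2201, chr7:87646805-87647625) with 1.94, 2.39 and 2.82 TPM against 1.79, 0.564 and 1.32 TPM. In both, every wild boar library lay above every domestic pig library, as deposited (background 2.46%) and after rescaling (background 6.21%). ATP8A1, a lipid flippase, had 3.89, 1.94 and 4.31 TPM against 1.70, 1.10 and 2.16 TPM (ssc_circ_6754), and the MLIP circle ssc_circ_1974 is given above.

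Counted as shares of back-splice reads and tested with voom, in which the spread was pooled wholly over all circRNAs, 12 of the 200 passed, 10 higher (background 0.227%) and 2 lower (background 0.0412%). The higher ones were SV2B, NALCN, RERE, the MLIP circle ssc_circ_1974, LOC106506781 (ssc_circ_6475), ATP8A1, PRKCB, NEK1, TBC1D22A and LOC110257498, and the lower ones PLA2R1 and CEP63. Only PLA2R1 passed both here and on deposited TPM. The count was 4 without wild boar 3 and 8 without wild boar 2, where 15 and 25 of all tested passed. RERE and TBC1D22A are among the circles whose libraries differed most within a breed.

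By host function, 75 of the 200 fell in at least 1 of 11 lists of brain and RNA genes, and 125 in none. The lists are not complete. For example, TTC3, a ubiquitin ligase, CFDP1, a chromatin protein, and MATR3, which binds RNA, are outside the list of their kind. Counts and shares below are therefore those of the lists and not of whole functions. Hosts for presynaptic release gave 4 circles, 2% against 1.69% of all circRNAs, and none passed. Besides both RIMS1 circles and SV2B they included ERC2, an active zone scaffold (ssc_circ_3732). It had 2.35, 2.39 and 2.36 TPM in wild boar and 1.63, 1.17 and 1.83 TPM in domestic pig, with no overlap (background 2.46% higher). The median log2 fold change of the 4, which came from 3 hosts, was 0.18 on deposited TPM and 0.77 after rescaling. Over all tested it was -0.45 and -0.10, and the difference was not tested. Postsynaptic and synaptic adhesion hosts, HOMER1 and ANKS1B among them, gave 4 with a median of -0.68, -0.09 after rescaling, and none passed.

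Ion channel and transport hosts gave 4 circles (KCNN2, NALCN, ANO4, SLC8A1), none passing, with a median of -0.71 and after rescaling -0.12. NALCN, the sodium leak channel, had 5.80, 8.84 and 7.87 TPM against 3.54, 8.19 and 4.06 TPM (ssc_circ_3121, chr11:69792527-69794145). SLC8A1, a sodium-calcium exchanger, had 1.24, 1.44 and 1.06 TPM against 2.61, 1.57 and 2.97 TPM (ssc_circ_7537). As deposited the breeds were separate for SLC8A1 of these 2, lower in wild boar (background 18.2%). After rescaling they were separate for NALCN, which was then higher in every wild boar library (background 6.21%).

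Chromatin and transcription hosts were the largest list, with 17 circles from 16 genes, 8.50% against 4.598% of all circRNAs. On deposited TPM 1 of the 17 passed and was lower (MEF2C; background 0.134%), none passed after rescaling, and the median was -0.68, -0.08 after rescaling. ZNF292, a zinc finger transcription factor, had 4.10, 5.59 and 5.36 TPM against 10.01, 8.83 and 7.71 TPM (ssc_circ_922), without passing. Protein kinases gave 14 circles, 7% against 2.94%, with none passing and a median of -0.62, -0.03 after rescaling. Among them, the circle of the transcriptional kinase CDK13 had 4.12, 2.97 and 5.56 TPM against 6.16, 5.24 and 10.4 TPM (ssc_circ_6638, chr18:54393586-54404485). CDK19 of the Mediator kinase module had means of 4.37 ± 1.19 and 7.07 ± 0.66 TPM (SD, n = 3 each), and NEK1, a kinase of cilia and DNA repair, 4.26 ± 1.53 and 2.74 ± 1.35 TPM.

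Membrane trafficking hosts gave 11 circles, 5.50% against 4.54%, with 1 called lower on deposited TPM (DENND1B; background 0.134%) and none after rescaling. Their median was -1.03, and after rescaling -0.45. Cell surface adhesion hosts gave 7 (ATRNL1 with 3, ADGRB3 with 2, ROBO2, LRP6), with none passing and medians of -0.52 as deposited and, with the sign turned, 0.07 after rescaling. ADGRB3, an adhesion receptor for C1q-like proteins, gave 1 circle with 1.33, 1.32 and 1.06 TPM against 2.75, 4.11 and 4.36 TPM (ssc_circ_862; adjusted p = 0.0536). Its second circle (ssc_circ_864) had 4.02, 4.202 and 4.38 TPM against 5.40, 7.10 and 5.79 TPM.

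The ubiquitin system gave 5 circles, 2.50% against 3.45%, led by UBE3A, the ligase of Angelman syndrome (2.06, 3.84 and 3.20 TPM against 5.16, 4.67 and 6.49 TPM), with RNF13, UBE2Q2 and UBR3. Cytoskeletal hosts gave 4, 2% against 3.88% (TTLL7, DOCK4, MYO9A, ABI2), and RNA-binding hosts 5, 2.50% against 1.64% (PAN3, QKI, CPEB3, PTBP3 and ELAVL2). None of these 14 passed on deposited or rescaled TPM. Medians of the ubiquitin, cytoskeletal and RNA-binding circles were -0.87, -0.47 and -0.69 on deposited TPM. After rescaling they were -0.27, 0.12 and -0.10, so that the cytoskeletal sign turned. The list of hosts known for brain circRNAs in human or mouse held 7 circles (TLK1, RIMS1 with 2, PHF21A, HOMER1, SLC8A1, MYO9A), none passing, with a median of -0.38 on deposited TPM and of opposite sign, 0.21, after rescaling. The lists overlap the choice of abundant circles, and nothing in these shares was tested.

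Of the hosts, those of 181 circles were matched in the gene table. The 2 tables were deposited separately and may not share 1 scale, so levels of a circle against its host are nominal. The circle stood at 13.4% of its host's TPM at the median, against 0.66% over all matched circRNAs, a difference that abundance as the criterion favours. It exceeded 10% for 107 of the 181, 50% for 19 and 100% for 4. The highest were KCNN2 at 170%, PHF21A at 142%, GLIS3, a zinc finger factor, at 134% and PAN3, of the PAN2-PAN3 deadenylase, at 102%.

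PHF21A itself had 12.2, 9.57 and 12.8 TPM in the wild boar libraries and 15.9, 22.1 and 16.7 TPM in the domestic pig libraries. GLIS3 was the least expressed of these hosts, at 1.65 TPM on average. The PAN3 circle (ssc_circ_2890, chr11:5503065-5507316) had 6.51, 6.58 and 7.39 TPM in wild boar and 5.97, 5.23 and 5.17 TPM in domestic pig.

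At the other end, abundant messages gave a small share as circles. MATR3, a nuclear matrix protein that binds RNA, had a circle at 1.28% of its 203 TPM (ssc_circ_2791), and PRKAR1A, a regulatory subunit of protein kinase A, one at 1.81% of its 215 TPM (ssc_circ_4446). QKI, a splicing factor known to promote circle formation, had one at 2.11% of its 184 TPM (ssc_circ_668), and TTC3, a ubiquitin ligase, one at 2.20% of its 145 TPM (ssc_circ_4374). These 4 circles themselves had ordinary levels for the set, from 2.59 to 3.91 TPM.

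**Figure D5:**
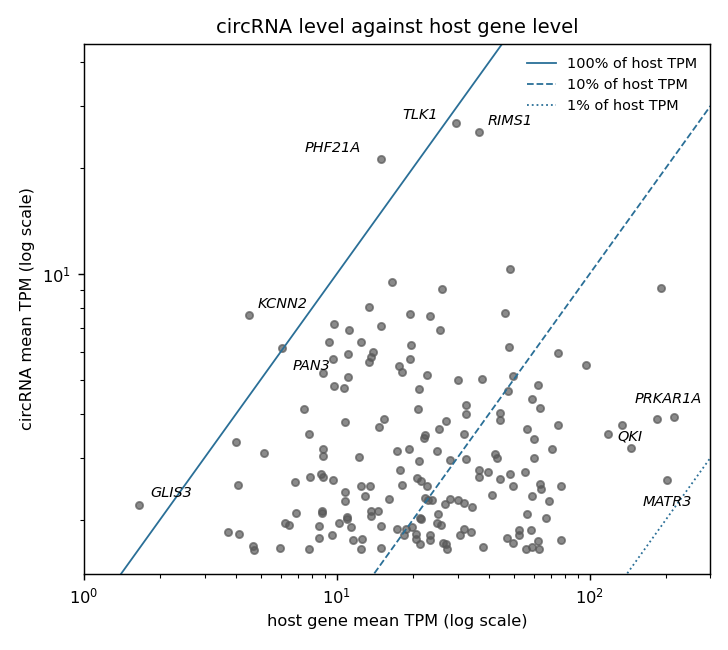
Mean circRNA TPM against mean host gene TPM over 6 libraries (both log scales) for the 181 circRNAs with a matched host; lines mark 100%, 10% and 1% of the host's TPM. KCNN2, PHF21A, GLIS3 and PAN3 lie above the 100% line, and MATR3 lies nearest to the 1% line.

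Host genes were tested over 11752 genes on log2(TPM + 1). On deposited TPM 1 of 161 hosts was lower in wild boar (background 1.46%) and none higher (background 0.136%). The lower one was BAZ2B, a bromodomain protein, at 5.77, 3.77 and 6.08 TPM against 11.5, 19.8 and 18.0 TPM, a log2 fold change of -1.48 ± 0.41 (limma adjusted p = 0.025). Its own circle had a log2 fold change of -0.29 and did not pass. The gene table rescaled by median ratios had 36 of the 161 lower (background 11%) and 1, AP2A1, higher (background 8.59%). The median of the hosts was -0.22, against 0.00 over all genes tested.

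Circles of those lower hosts are set beside the others without a test. Of the 39 circles whose host was lower after rescaling, 23 were below 0 on rescaled circRNA TPM, with a median of -0.12, against -0.08 for the 141 circles whose tested host did not pass; the circle of AP2A1 is in neither set. Among the 8 circles called on deposited TPM, the host PLA2R1 was lower after rescaling (means of 10.8 ± 4.14 and 27.6 ± 10.1 TPM with the SD of 3 libraries, a log2 fold change of -0.79 ± 0.13 and a limma adjusted p of 0.00801). The other 6 hosts did not pass on either scale, and MLIP as a whole had a rescaled log2 fold change of 0.00 ± 0.18.

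Set relative to its host, log2(circRNA TPM + 0.045) minus log2(host TPM + 1), none of 181 circles and 0 of 8693 circRNAs tested passed in limma (background 0%). The median of the 181 was 0.01, against 0.24 over all. At an unadjusted p under 0.05, 11 were higher (background 5.41%) and 1 lower (background 1.44%). The gap between the medians depended on scale and pseudocounts. With both tables rescaled by median ratios they were 0.131 for the 181 and 0.125 over all. They were 0.04 and 0.05 at pseudocounts of 0.01 and 0.1, and 0.10 and 0.56 at 0.5 and 1. Single libraries moved these values. The median was -0.19 (all: -0.01) with 7 higher and 8 lower without wild boar 2, and 0.19 (all: 0.44) with 10 and 1 without wild boar 3. It was 0.17 (all: 0.40) with 16 and 1 without domestic pig 1, -0.13 (all: 0.03) with 7 and 5 without domestic pig 2, and -0.01 (all: 0.24) with 6 and 2 without domestic pig 3. The lowest p among the 181 belonged to NEK1 (1.36 ± 0.37, adjusted p = 0.381), the MLIP circle ssc_circ_1974 (1.36 ± 0.41, adjusted p = 0.467) and PAN3 (0.96 ± 0.30, adjusted p = 0.486).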

How the data were processed

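Per the labels' protocols, total RNA was depleted of ribosomal RNA and made into stranded libraries. The authors deposited TPM for circRNAs and, separately, TPM for protein-coding genes. STAR 2.6.0c and BWA 0.7.17 are named, without roles, in the submitters' processing notes. The sources used here give no circRNA caller or genome build.

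Back-splice reads and lengths were recovered from the circRNA TPM, which are whole reads times a library factor over a whole length; circles of 1 block, whose length equals their span, fixed the length. All 11375 came out whole (largest relative deviation 2.3e-07). Each is the smallest whole pair with at least 3 reads in 1 library, and 760 were raised to reach that. Starts were raised by 1 to count from 1. Hosts were named by position with Sscrofa11.1 RefSeq names: a gene enclosed 99.3% of circRNAs, and 47.2% once positions were moved by 1000000 bases.

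CircRNAs above 0 in at least 3 libraries were tested with limma 3.58.1 (R 4.3.3) with a mean-variance trend on log2(TPM + 0.045), two-sided, at 0.05 after Benjamini-Hochberg adjustment, and hosts that reached 1 TPM in 3 or more libraries on log2(TPM + 1). Rescaling used the median ratio over 3976 circRNAs. Scripts were tested on simulated data in which 100 of the circles described here and 100 other circRNAs were changed, up and down in turn. The simulation held no shift of the whole table between breeds, which the deposited table has (median -0.45). Recovery under such a shift was not tested. On deposited TPM limma recovered 0% of the changed circles at a log2 change of 0.5 or 1, 67% at 2 and 96% at 3. After rescaling it recovered 0% at 0.5 or 1, 70% at 2 and 93% at 3. False calls at changes of 2 and 3 numbered 4 and 3 on deposited TPM, and 1 and 10 after rescaling. A circle that did not pass may therefore still differ between the breeds. The voom test was chosen after seeing the data.

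Named circles were the 12 of highest mean, all passing ones, hosts with at least 3, the 4 of highest and lowest host ratio and spread, the 5 on each side of the cut and up to 4 per host list, except 1 host that is not reported here. The members and lists were chosen with earlier results of these data known.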

Additional observations from a re-analysis of the deposited data

How the results depend on the processing

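The 8 circRNAs of the 200 lower in wild boar were called by limma on deposited TPM close to the threshold. The count was 0 at a pseudocount of 0.01, without a variance trend, after median-ratio rescaling (also with each library left out, and with the replicate block) and after division by the circRNA TPM sum. It was 4 with no filter (6 of all 11375 circRNAs) and 15 at a pseudocount of 0.5 (25 of all 9709). It was 50 when only circRNAs above 0 in all 6 libraries were tested (154 of all 3976). Those 50 were 49 lower and 1 higher, with the 8 among them. Leaving out 1 library gave 0 to 12, all lower, where 1 to 25 of all 8671 to 9243 circRNAs tested passed. Same-numbered libraries did not deviate together (correlations 0.00129, 0.00692 and -0.000835), so the numbers do not pair them. The replicate block gave 15 calls, the 8 among them (21 of all 9709). With voom on recovered reads, added after seeing the data, 12 passed, 10 of them higher (26 of all 9709, 22 of them higher). With 1 library left out 4 to 12 passed under voom (4 without wild boar 3), and 12 to 29 of all tested. The cause of these differences was not tested. All 12 circRNAs followed across 28 alternatives (the 8, LOC106506781, ATP8A1, SV2B and MLIP ssc_circ_1974) kept the sign of their log2 fold change. They were picked for their values in these data, and the filter, the variance trend and the replicate block leave a fold change as it is. Where the breeds did not overlap, leaving out 1 library on deposited TPM cannot turn the sign either. The kept sign is therefore no separate support.

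The median log2 fold change of the 200, -0.66, was -0.54 at a pseudocount of 0.5 and -0.68 to -0.58 with 1 library left out. It was -0.078 after rescaling (-0.078 with the replicate block; -0.044, -0.082 and 0.00085 without wild boar 1, 2 and 3; -0.014, -0.078 and -0.093 without domestic pig 1, 2 and 3). It was -0.11 after division by the TPM sum and -0.017 with voom (0.0023, -0.0096 and 0.023 without wild boar 1, 2 and 3; 0.022, -0.031 and -0.062 without domestic pig 1, 2 and 3). The difference in TPM share between breeds, wild boar minus domestic pig, was -0.06 percentage points. It was 0.14 for the first 400 circRNAs, 1.67 when ranked by the wild boar mean and -1.36 when ranked by the domestic pig mean, 0.012 without wild boar 1, 0.12 without domestic pig 2 and between -0.63 (without domestic pig 3) and 0.33 (without domestic pig 1). The difference in read share, 0.60 points, was 1.87 when ranked by the wild boar mean, -0.65 when ranked by the domestic pig mean and -0.14 when ranked by reads, and stayed between 0.07 and 1.10 with 1 library left out. Relative to the host, pseudocounts of 0.5 and 1 gave 1 call in place of 0, where 13 of all 8693 circRNAs passed. None of the 181 was called with any 1 library left out. Depth limits the single circles: at 33644 to 73089 reads per library, counting error alone gives a log2 SD of 0.22 at the median of the 200.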

Other observations

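Ranked by the mean share of back-splice reads, without the length scaling of TPM, the first 3 are RIMS1, PHF21A and TLK1, the same 3 circles as by TPM in another order. The circle of CDK13 (1142 nt, 1690 reads) ranked 4 by reads and 28 by TPM. TMEM132D, a membrane protein gene, gave a circle of 1 block of 892 nt with 1205 reads (ssc_circ_5373, chr14:25351389-25352280), ranked 6 by reads and 37 by TPM. Its level was 3.15, 4.50 and 4.31 TPM in wild boar and 4.87, 5.03 and 8.64 TPM in domestic pig. ZMYM4, a zinc finger gene, ranked 8 by reads and 42 by TPM. SMAD4, the common mediator of TGF-beta and BMP signalling, gave the longest of the 200, 1437 nt with 837 reads (ssc_circ_1091, chr1:100589850-100613174), ranked 10 by reads and 131 by TPM.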
